A study of Mus musculus with 8 samples.

Results

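The 10 genes of chylomicron assembly described here were measured by RNA sequencing in 2 fractions of mouse small intestinal epithelium. They encode 5 apolipoproteins (Apoa1, Apoa4, Apob, Apoc2 and Apoc3), 3 proteins that load lipid onto the nascent particle (Mttp, Pla2g12b and Tm6sf2), the GTPase of particle export (Sar1b) and a transcription factor of lipoprotein genes (Creb3l3). The genes were chosen by name, and all 10 were found among the 23318 Ensembl genes that each library lists. Cells had been sorted on CD24, a surface glycoprotein, after removal of CD45-positive leukocytes and of cells that bind the lectin of Ulex europaeus. The comparison is between CD24Mid cells (4 libraries, title numbers 1, 3, 5 and 7; the study's text also calls them CD24low) and CD24Neg cells (4 libraries, title numbers 2, 4, 6 and 8). The strain of the mice is not given in the sources used here, nor is their genotype, age or treatment. By its title, the series relates 5-hydroxymethylcytosine to gene activity as the intestine differentiates.

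Absorptive enterocytes resynthesise triglyceride from absorbed fat and pack it with apolipoprotein B in the endoplasmic reticulum into chylomicrons, which leave the cell for the lymph. Microsomal triglyceride transfer protein adds lipid to apolipoprotein B while it is made, the smaller apolipoproteins coat the particle, and vesicles of the COPII coat carry it towards the Golgi apparatus. In enterocytes an enzyme complex edits the Apob messenger RNA, turning a glutamine codon into a stop codon, so that the intestine makes the short form apoB48.

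All 10 genes passed the filter on low values and were higher in CD24Neg cells, and in none of them did the ranges of the fractions overlap. At an adjusted p under 0.05, 34.0% of the 12906 tested genes were higher in CD24Neg and 34.3% were lower, 68.3% in all. By ranges without overlap, 31.8% were higher and 32.1% lower. With libraries scaled to their totals in place of the median ratio, the counts of higher and lower genes went from 4386 and 4424 to 2842 and 6497, and the median log2 difference of all tested genes moved from -0.02 to -0.44. The median log2 difference of the 10 genes was 4.11, with a range from 1.46 to 6.85. All 10 stayed called in each of 16 alternative fits, although quantile normalization lowered Apoa1 from 6.76 to 5.80, Apoa4 from 6.60 to 5.64, Apob from 3.85 to 3.07 and Mttp from 2.86 to 2.05. The alternative without centring could hardly differ from the main fit, because the median ratios of the deposited libraries were already 1.0102 to 1.0104. All values below are the deposited normalised expression values. They are taken here as not divided by transcript length, which the sources used here do not state. Differences are CD24Neg minus CD24Mid on the scale log2(value + 0.5), and p-values were taken from limma and adjusted by Benjamini-Hochberg over all tested genes. In such sorted bulk samples, fewer cells of a type and less RNA per cell cannot be told apart.

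The CD24Mid libraries had an estimated depth of 17.3 to 19.5 M reads and the CD24Neg libraries of 12.5 to 20.6 M, if the smallest step between low values is 1 read. Mitochondrially encoded genes took 8.03 to 9.10% of the values of CD24Mid libraries and 28.3 to 37.4% of those of CD24Neg libraries. Against the labelled tissue, the 8 enterocyte markers were detected in every library, with a summed level between 22852 and 37993 in CD24Mid and between 248962 and 417246 in CD24Neg. The 6 stem and progenitor markers summed to 52997 to 75159 and to 1960 to 6861, in the same order. The 6 goblet cell markers were present in both fractions, at 47556 to 74600 and 182069 to 504558, although Ulex-binding cells had been depleted. Liver makes the same apolipoproteins. Of the hepatocyte list 4 of 6 genes were matched, and it summed to between 76.3 and 248 in CD24Mid and between 29.3 and 45.7 in CD24Neg, most of it Ttr in CD24Mid (68.5 to 224). Albumin (Alb) was between 5.10 and 13.9 in CD24Mid and at most at 1.11 in CD24Neg, Serpina1a was at most at 7.30 in any library, and Tat was between 0.371 and 3.72 in CD24Mid and between 7.92 and 25.2 in CD24Neg. The part of such cells in the result was not tested.

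The 3 stretches of mouse sequence printed here carry features that bear on these genes. The Apob site is shown because its edited base decides which form of the protein is made. It lies in exon 26 of 29, within codon 2179 of 4505, at chr12:8008044-8008073 on the plus strand of GRCm38 in the GENCODE M21 transcript. The capital C marks the edited base, at position 8008054, and the mooring element that guides the editing enzyme begins after 4 further bases and occurs 1 time in the transcript. The upstream stretches of Apoa4 and Apob, from RefSeq windows on GRCm38.p6, end at the base before the GENCODE gene start and are shown because they hold the letters of an HNF4 motif, a nuclear receptor known to act on lipoprotein genes.
Apob edited site, chr12:8008044-8008073, plus strand: atacgcgataCaatttgatcagtatattaa
Apoa4 upstream, chr9:46240594-46240695, plus strand, HNF4 letters in capitals: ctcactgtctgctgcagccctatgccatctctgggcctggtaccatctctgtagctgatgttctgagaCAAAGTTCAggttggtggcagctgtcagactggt
Apob upstream, chr12:7977427-7977647, plus strand, HNF4 letters (reverse strand) and TATA box in capitals: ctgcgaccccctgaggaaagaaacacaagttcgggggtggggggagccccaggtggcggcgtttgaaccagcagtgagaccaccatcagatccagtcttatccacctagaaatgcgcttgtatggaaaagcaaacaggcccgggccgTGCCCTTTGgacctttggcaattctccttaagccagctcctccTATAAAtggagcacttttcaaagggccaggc

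The HNF4 letters searched were CAAAGNNCA on both strands, in the 250 bases before each RefSeq start. They were in 3 of 9 windows of the genes (Apoa4, Apob and 1 of 2 Creb3l3 windows) and in 5.49% of all 32851 windows. In Apoa4 the match begins 34 bases before the GENCODE start, and in Apob 74 bases before it, with the TATA box letters TATAAA 31 bases before it. TATAAA stood in 1 of the 9 windows (Apob) and in 12.4% of all. The cyclic AMP response element letters TGACGT were in 1 window (Mttp) against 6.47%, the GATA letters AGATAA in 1 (Creb3l3) against 9.99%, and CCAAT in 2 (Creb3l3 and Sar1b) against 33.8%. The Sp1 letters GGGCGG were in none of the 9 and in 32.7% of all windows. These windows belong to 8 of the 10 genes, and windows for Apoc3 and Tm6sf2 were not used here. The Mttp window and the Creb3l3 window with matches lie inside the GENCODE bounds of these genes. The Mttp and Sar1b windows also overlap the opposite-strand genes Trmt10a and Sec24a. A match describes letters in a window and shows no binding.

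Apoa1 encodes apolipoprotein A-I, the main protein of high-density lipoproteins, which also enters the circulation on chylomicrons (ENSMUSG00000032083, 4 exons, chr9:46228580-46230466 on GRCm38). Its values were 1778, 1693, 945 and 1287 in CD24Mid libraries 1, 3, 5 and 7, and 114651, 172297, 213257 and 120216 in CD24Neg libraries 2, 4, 6 and 8. Every CD24Neg library was far above every CD24Mid library, and libraries 4 and 6 were the highest. The means were 1425 ± 386 and 155105 ± 46658 (SD, n = 4 each), a 108-fold difference (log2 difference 6.76, SE 0.25, adjusted p = 1.55e-07).

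Apoa4, which encodes apolipoprotein A-IV, a surface protein made mainly by the intestine that is known to limit food intake, lies beside it (ENSMUSG00000032080, 3 exons, chr9:46240696-46243459). It was at 1386, 1573, 817 and 951 in CD24Mid and at 73926, 170910.0, 156384 and 76494 in CD24Neg. The CD24Neg libraries fell into a higher pair, 4 and 6, and a lower pair, 2 and 8, with a highest-to-lowest ratio of 2.31, and no CD24Mid library came near them. The means of 1182 ± 356 and 119428 ± 51413 differed 97.1-fold (log2 difference 6.60, SE 0.32, adjusted p = 2.66e-07). Whether the counting used strand is not given in the sources used here, and an antisense gene, Gm10680, overlaps Apoa4, so reads of this pair may not be told apart.

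Apoc3 encodes apolipoprotein C-III, an inhibitor of lipoprotein lipase and of remnant clearance, and lies between Apoa1 and Apoa4 on the other strand (ENSMUSG00000032081, 4 exons, chr9:46232933-46235636). Its values were 149, 160.2, 73.3 and 76.2 in CD24Mid and 4897, 10884, 9597 and 4434 in CD24Neg. The groups did not overlap, and libraries 4 and 6 again stood above 2 and 8. The means, 115 ± 46.5 and 7453 ± 3266, differed 63.8-fold (log2 difference 6.0, SE 0.36, adjusted p = 5.41e-07).

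Apoc2 encodes apolipoprotein C-II, the activator of lipoprotein lipase and so the functional counterpart of Apoc3 (ENSMUSG00000002992, 5 exons, chr7:19671579-19677941). It was at 123, 149.7, 74.0 and 97.8 in CD24Mid and at 10193, 15043, 15797 and 9884 in CD24Neg. The CD24Neg values spread less than those of Apoa4 or Apoc3, with a highest-to-lowest ratio of 1.60. The difference of 115-fold, from 111 ± 32.5 to 12729 ± 3124, was the largest among the 10 genes (log2 difference 6.85, SE 0.23, adjusted p = 1.25e-07) and had rank 19 of the 12906 tested genes by log2 difference. A read-through gene model, Gm44805, overlaps Apoc2 on the same strand in GENCODE M21 and was not analysed here.

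**Figure D1:**
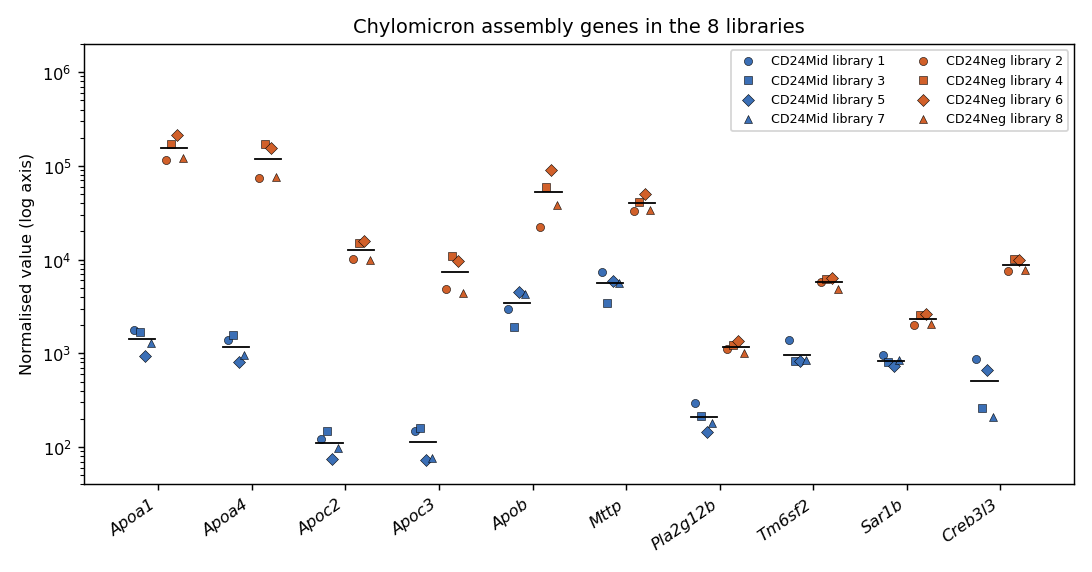
Deposited normalised value of each of the 10 genes (log axis) in each library, with CD24Mid and CD24Neg libraries as separate points. In every gene the CD24Neg points lie above all CD24Mid points, from Sar1b (2.74-fold) to Apoc2 (115-fold).

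Apob encodes the structural protein around which each chylomicron is built (ENSMUSG00000020609, 29 exons, chr12:7977648-8016835). It was at 2942, 1895, 4539 and 4340.1 in CD24Mid and at 22566, 60185, 91020.0 and 38662 in CD24Neg. The lowest CD24Neg library, number 2, was still above the highest CD24Mid library, and the CD24Neg libraries spread 4.03-fold. The means of 3429 ± 1245 and 53108 ± 29603 differed 14.4-fold (log2 difference 3.85, SE 0.42, adjusted p = 2.04e-05). Without CD24Neg libraries 2 and 8 the log2 difference of Apob was 4.54 and that of Apoc3 was 6.59, and no other gene of the 10 moved by over 1.5-fold when these libraries were left out.

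All 4 genes of Apob messenger editing were called, 3 higher and 1 lower in CD24Neg. Apobec1, the cytidine deaminase that edits the site printed above, went from 84.5 ± 28.3 to 706 ± 56.0, an 8.67-fold difference (adjusted p = 1.41e-06). Its RNA-binding cofactor Rbm47 was 1.68-fold higher (2031 ± 80.3 to 3418 ± 264, adjusted p = 4.69e-05). The other cofactor, A1cf, was at 497, 458, 892 and 812 in CD24Mid and at 795, 1412, 1968 and 1267 in CD24Neg, so the groups overlapped, and it passed the test at adjusted p = 0.0106. That call was lost without the filter on low values (adjusted p = 0.0535) and with scaling to totals (adjusted p = 0.0865). Syncrip, an RNA-binding protein that also binds this complex, was lower in CD24Neg, at 923 ± 140.2 against 2512 ± 506 (2.70-fold, adjusted p = 3.37e-05). The files hold no editing level, so the edited share of Apob messengers was not measured.

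Of 8 genes of apolipoprotein B folding and degradation, 2 were higher, 1 was lower and 5 were not called. P4hb, the protein disulfide isomerase that is the partner subunit of Mttp, was 3.58-fold higher (12282 ± 1652 to 44011 ± 5508, adjusted p = 2.20e-06). Sort1, a sorting receptor that binds apolipoprotein B, was lower in CD24Neg (4196 ± 297 against 2752 ± 162, log2 difference -0.61, adjusted p = 2.62e-04). The chaperones Hspa5, at 8350.2 ± 1902 and 8817 ± 1765, and Hsp90b1, at 9568 ± 2334 and 7149 ± 1440.2, were not called (adjusted p = 0.712 and 0.0966), and Hspa5 changed sign with the scaling. Hsp90b1 was called lower after quantile normalization (-1.0, adjusted p = 0.00606), with scaling to totals (-0.84, adjusted p = 0.00440) and without CD24Mid library 3 (-0.55, adjusted p = 0.0368).

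Mttp encodes the large subunit of microsomal triglyceride transfer protein, without which no chylomicrons are made (ENSMUSG00000028158, 18 exons, chr3:138089854-138144968). Its values were 7442, 3464, 5859 and 5625 in CD24Mid and 33103, 41518, 50468 and 34189 in CD24Neg. The groups did not overlap, and library 3 was the lowest of CD24Mid. The difference from 5598 ± 1635 to 39819.5 ± 8023 was 7.27-fold (log2 difference 2.86, SE 0.23, adjusted p = 2.91e-06). Trmt10a, a transfer RNA methyltransferase gene that overlaps Mttp on the other strand, was lower in CD24Neg, at 31.1 ± 17.6 against 107 ± 12.6 (3.82-fold).

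Tm6sf2 encodes a membrane protein of the endoplasmic reticulum that takes part in lipid loading (ENSMUSG00000036151, 10 exons, chr8:70072924-70080066). It was at 1388, 828, 821 and 847 in CD24Mid and at 5827, 6272, 6313 and 4861 in CD24Neg. CD24Mid library 1 stood above the other CD24Mid libraries and below all CD24Neg libraries. The means of 971 ± 278 and 5818 ± 675 differed 6.12-fold (log2 difference 2.61, SE 0.18, adjusted p = 1.05e-06).

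Pla2g12b encodes a phospholipase-like protein without catalytic activity that is needed for the lipidation of apolipoprotein B particles (ENSMUSG00000009646, 4 exons, chr10:59403660-59421976). It was at 293, 215, 143 and 182 in CD24Mid and at 1103, 1219, 1359 and 1018 in CD24Neg, with no overlap. The difference from 208 ± 63.5 to 1175 ± 148 was 5.79-fold (log2 difference 2.53, SE 0.20, adjusted p = 2.47e-06). Among 4 tested secreted phospholipases A2, its closest relative Pla2g12a was lower in CD24Neg (242 ± 46.4 against 75.5 ± 15, adjusted p = 2.71e-05). Pla2g2f and Pla2g5 were lower too (log2 differences -2.22 and -3.30, adjusted p = 1.32e-04 and 0.00181), while Pla2g10 was 2.25-fold higher (adjusted p = 6.46e-04). Pla2g2f and Pla2g5 passed the filter through CD24Mid, where they were at 29.9 to 67.8 and 37.3 to 119. In CD24Neg they were at 7.96 to 11.8 and 1.06 to 19.5, where a step of about 1 read was worth 1.08 to 1.78. The size of these 2 differences is therefore uncertain. The Pla2g5 difference was -2.62 without CD24Neg library 6 and -4.16 without libraries 2 and 8. The family list held 1 gene higher and 3 lower, of which Pla2g2f and Pla2g5 were near the floor in CD24Neg.

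Sar1b encodes the small GTPase that starts the COPII coat on vesicles carrying chylomicrons and whose loss causes chylomicron retention disease (ENSMUSG00000020386, 7 exons, chr11:51763687-51791925). Its values were 950.5, 812, 738 and 857 in CD24Mid and 2007, 2584, 2615 and 2041 in CD24Neg. The groups did not overlap, but the difference from 839 ± 89.0 to 2312 ± 333 was the smallest of the 10 genes, 2.74-fold (log2 difference 1.46, SE 0.13, adjusted p = 4.37e-06). Its close copy Sar1a was at 1087, 1025, 996 and 993 in CD24Mid and at 1006, 1049, 1067 and 894 in CD24Neg. The Sar1a groups overlapped and the gene was not called (log2 difference -0.03, adjusted p = 0.760). Its call depended on the scaling, as it was called lower after quantile normalization (-0.32, adjusted p = 0.00856) and scaling to totals (-0.46, adjusted p = 4.32e-04). Its sign turned without CD24Neg library 8 (0.029) and without libraries 2 and 8 (0.070). How the counting shared reads between such copies is not given in the sources used here, so the levels of the pair are uncertain.

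Within libraries, which sets the scaling aside, the log2 ratio of Sar1b to Sar1a was -0.29 ± 0.11 in CD24Mid and 1.19 ± 0.14 in CD24Neg (SD, n = 4 each), with no overlap. This was 1 of 8 ratios tested, and its exact two-sided permutation p of 0.0286, the smallest that 4 against 4 libraries can give, was 0.0762 after adjustment over the 8. The ratio uses values taken as not divided by length, so its sign does not say which copy was the higher.

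Of the 16 other COPII and export genes tested, 15 were higher in CD24Neg, and 1, Sar1a, was not called. The median log2 difference of the list was 0.75. Of these 15 genes, 5 (Sec13, Sec16a, Sec23b, Sec24b and Mia2) were not called in at least 1 alternative fit. Sec16b, a scaffold of the sites where coated vesicles form, had a 7.55-fold difference (409 ± 64.4 to 3084 ± 365, adjusted p = 2.20e-07). The cargo adaptor Sec24d differed 7.68-fold (413 ± 65.0 to 3197 ± 656, adjusted p = 4.13e-07), and the outer coat gene Sec31a 2.5-fold (3299.8 ± 156 to 8263 ± 591, adjusted p = 1.54e-06). In Sec16b the highest CD24Mid library was at 501 and the lowest CD24Neg library at 2687, and in Sec24d these were at 470.4 and 2585.

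Creb3l3 encodes a transcription factor anchored in the endoplasmic reticulum membrane that is released by proteolysis and acts on lipid genes (ENSMUSG00000035041, 12 exons, chr10:81084324-81098874). It was at 871, 264, 666 and 212 in CD24Mid and at 7530.3, 10188, 9950.5 and 7840.2 in CD24Neg. The CD24Mid libraries varied widely among themselves, with 1 and 5 above 3 and 7, and none came near the CD24Neg range. The means of 503 ± 318 and 8877 ± 1386 differed 20.7-fold (log2 difference 4.37, SE 0.40, adjusted p = 6.92e-06).

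In the list of its family and the proteases that release such factors, 2 of 7 genes were higher in CD24Neg, 3 were lower and 2 were not called. Creb3 was 2.41-fold higher (445 ± 61.8 to 1069 ± 60.7, adjusted p = 5.12e-06) and Creb3l2 5.14-fold (201 ± 37.4 to 1066 ± 371, adjusted p = 1.41e-05). Creb3l1 was lower, at 331 ± 121 against 580.3 ± 113 (adjusted p = 0.00815), but not without CD24Neg libraries 2 and 8 (adjusted p = 0.0557). The escort protein Scap was lower as well (log2 difference -0.52, adjusted p = 5.77e-04). The site-2 protease Mbtps2 was lower at -0.56 (adjusted p = 0.0182), a call that was lost when CD24Mid library 7 (adjusted p = 0.0510) or CD24Neg library 2 (adjusted p = 0.0520) was left out. The site-1 protease Mbtps1 (1938 ± 119.8 and 2201 ± 98.0) and Creb3l4 (117 ± 33.4 and 101 ± 32.2) were not called. Mbtps1 was called higher without the filter (adjusted p = 0.0323) and lower after quantile normalization (adjusted p = 0.0227) and scaling to totals (adjusted p = 0.0311).

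Of 6 reported Creb3l3 target genes, 3 were tested and all 3 were higher, of which Apoa4 and Apoc2 are described above. The third, Cidec, which encodes a lipid droplet protein, was 25.0-fold higher (32.5 ± 18.4 to 750.1 ± 185, adjusted p = 2.55e-06). Apoa5 was between 1.16 and 6.67 in CD24Mid and between 4.98 and 10.4 in CD24Neg, and Hamp was at most at 1.99, both under the filter, and Fgf21 was not analysed here.

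Among 16 transcription factors and coactivators of lipoprotein genes, 10 were higher, 2 lower and 4 not called. Of the 12 called genes, 4 were not called in at least 1 alternative fit. The liver X receptor genes Nr1h3 and Nr1h2 were 3.46-fold and 2.0-fold higher (adjusted p = 1.13e-06 and 1.70e-05), and the coactivator gene Ppargc1a 4.58-fold (adjusted p = 4.16e-06). Hnf4a, whose motif letters are printed above, was lower in CD24Neg, at 9517 ± 394 against 13233 ± 285 (log2 difference -0.48, adjusted p = 0.00127). Its relative Hnf4g, named after its values were seen, lay between 1539 and 2813 in CD24Mid and between 5723 and 11661 in CD24Neg. Nr5a2 was lower, with a log2 difference of -0.66 (adjusted p = 0.00187). Cdx2 and Gata4 were not called, at 3310.3 ± 508 and 3174 ± 421 and at 2474 ± 334 and 2445 ± 401, although both were called lower after quantile normalization (-0.57 and -0.49) and scaling to totals (-0.48 and -0.45).

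**Figure D2:**
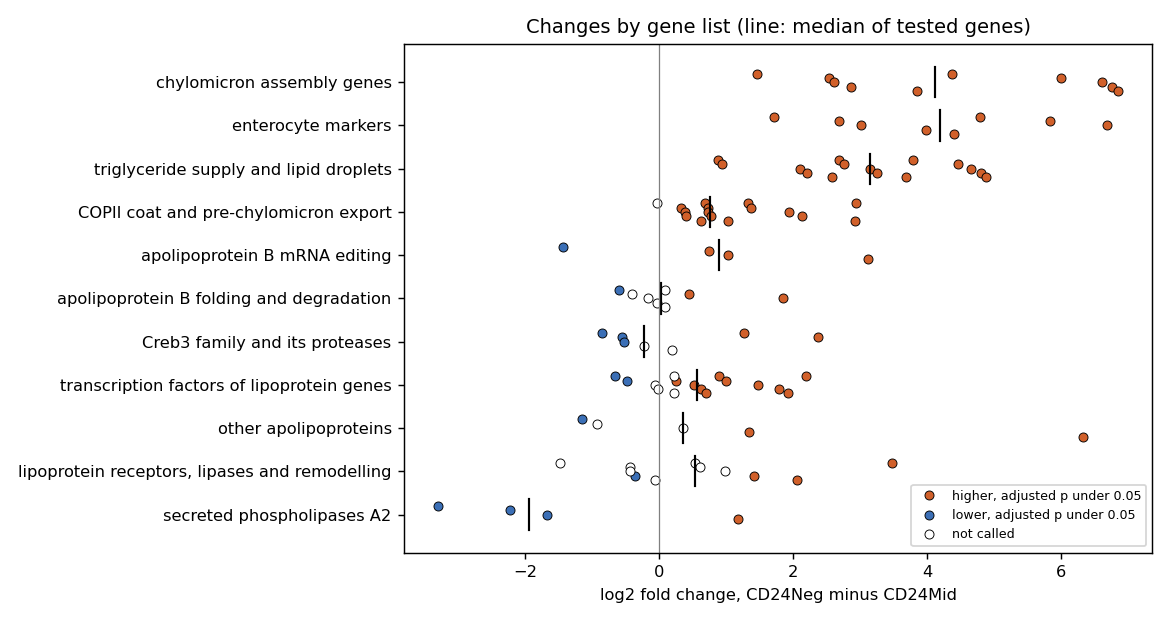
Log2 difference (CD24Neg minus CD24Mid) of each tested gene, by list, with called and uncalled genes marked. The triglyceride supply genes all lie to the right of 0, like the 10 genes of chylomicron assembly, while the secreted phospholipases A2 lie on both sides.

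Beyond the 10 genes, the pathway lists held 100 others, of which 86 were tested, 53 were higher and 12 lower. The counts were 47 and 19 after quantile normalization and 42 and 23 with scaling to totals. Among all tested genes 34.0% were higher and 34.3% lower, and the counts of each single list are to be read beside these shares. Upstream of assembly, all 15 genes of triglyceride supply and lipid droplets were higher in CD24Neg, with no overlap in any and a median log2 difference of 3.15. Fabp2, the intestinal fatty acid binding protein gene, went from 2421 ± 395 to 54003 ± 13364 (log2 difference 4.46, adjusted p = 1.94e-07). The triglyceride synthesis gene Dgat2 was 9.49-fold higher (356 ± 62.0 to 3386 ± 618, adjusted p = 2.67e-07), and the acyl-CoA synthetase gene Acsl5 6.78-fold (3306 ± 373 to 22618 ± 4204, adjusted p = 3.86e-07). The 8 enterocyte markers were all higher too, with a median log2 difference of 4.19 and a range from 1.72 to 6.68. Of the 10 genes of chylomicron assembly, 7 lay within that range, Sar1b lay below it at 1.46, and Apoa1 and Apoc2 lay above it at 6.76 and 6.85. Neither list was tested against the other.

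The 12 other apolipoprotein genes were mostly low, and 5 passed the filter. Apoa2 was 2.54-fold higher (9.84 ± 1.58 to 26.6 ± 7.96, adjusted p = 0.00519). Saa1, an acute-phase apolipoprotein gene, was at most at 0.479 in CD24Mid, which is within 1 read of 0, and at 124, 29.0, 26.4 and 93.6 in CD24Neg, where libraries 2 and 8 were the highest. Apoe was at 258, 92.9, 102 and 241 in CD24Mid and at 75.1, 54.5, 53.1 and 109 in CD24Neg, with overlapping groups. It passed the test as lower (log2 difference -1.16, adjusted p = 0.0206), but in 6 alternatives it did not, among them leaving out CD24Mid library 1 (adjusted p = 0.0589) or 7 (0.0593) and CD24Neg library 4 (0.0533) or 6 (0.0551). Clu and Apoh were not called (adjusted p = 0.0818 and 0.422), although Clu was called lower with scaling to totals (adjusted p = 0.0155) and without CD24Neg library 6 (adjusted p = 0.0343). Under the filter, Apoc1 was at most at 1.31, Apoc4 at most at 5.97, Apom at most at 8.27, Saa2 at most at 2.82, Apod at most at 1.82 and Apof at most at 0.472 in any library.

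Of 11 tested genes of lipoprotein receptors, lipases and remodelling, 3 were higher, 1 was lower and 7 were not called. The cholesterol exporter Abca1 was 11.1-fold higher (32.8 ± 8.45 to 385 ± 159.8, adjusted p = 5.80e-06), the receptor Lrp1 2.67-fold (adjusted p = 3.36e-05) and the lipase inhibitor Angptl4 4.14-fold (adjusted p = 0.00111). Lmf1, a lipase maturation factor gene, was lower (log2 difference -0.36, adjusted p = 0.0450), a call that was lost when any library other than CD24Mid 5, CD24Mid 7 or CD24Neg 2 was left out, at adjusted p from 0.0549 to 0.116. Lipoprotein lipase itself (Lpl) was at 5.44 to 8.74 and 5.41 to 12.2, and Lipc was at most at 7.68.

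Levels of different genes can be compared only per length, here as the deposited value per kb of GENCODE transcript. This order holds only if the deposited values were not already divided by length. On this scale the order in CD24Neg was Apoa1 (149860.0), Apoa4 (65801), Apoc2 (17509), Apoc3 (14169), Mttp (10048), Tm6sf2 (4103), Creb3l3 (3869.8), Apob (3811), Sar1b (1925) and Pla2g12b (1077). The ranges of Apoa1 and Apoa4 did not overlap, nor did those of Apoa4 and Apoc2, whereas Apoc2 overlapped Apoc3, Apoc3 overlapped Mttp, and Tm6sf2, Creb3l3 and Apob overlapped each other. Sar1b overlapped the widely spread Apob (1619 to 6532) but not Pla2g12b.

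In CD24Mid the order per kb was different. Mttp (1413) and Apoa1 (1377) were the highest and overlapped, at 874 to 1878 and 913 to 1717. They were followed by Sar1b (699), Tm6sf2 (685) and Apoa4 (651), which overlapped each other. Apob (246), Creb3l3 (219), Apoc3 (218), Pla2g12b (191) and Apoc2 (153) were the lowest, with overlapping ranges. By mean, Apoc2 was thus the lowest of the 10 genes in CD24Mid and the third in CD24Neg, and Sar1b was the third and the ninth.

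**Figure D3:**
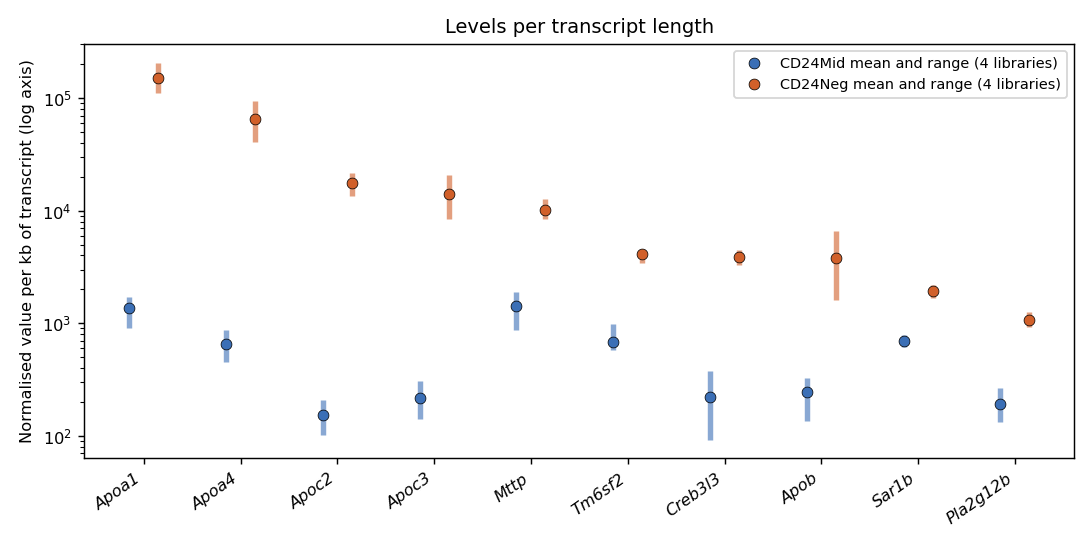
Deposited value per kb of transcript (log axis) for each of the 10 genes, with the mean and range of 4 libraries in each fraction. In CD24Neg the genes run from 1077 (Pla2g12b) to 149860.0 (Apoa1), and in CD24Mid from 153 (Apoc2) to 1413 (Mttp).

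Summed, the 10 genes took up 0.156, 0.103, 0.140 and 0.138% of the values outside mitochondrially encoded genes in CD24Mid libraries 1, 3, 5 and 7. In CD24Neg libraries 2, 4, 6 and 8 they took up 1.92, 3.26, 3.54 and 2.14%. The means of 0.134 ± 0.0226% and 2.71 ± 0.803% differed by 2.58 percentage points, with no overlap (exact two-sided permutation p = 0.0286, the smallest that 4 against 4 can give). Apoa1 alone held 1.04% of the CD24Neg values and Apoa4 0.797%, against 0.0133% and 0.0110% in CD24Mid. Apob held 0.353% and 0.0322%, in the same order.

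Ratios between genes of a library ask whether partners differed by unequal amounts. The values are taken as not divided by length, so only the difference of a ratio between fractions is read. The ratio of Apoa4 to Apoa1 overlapped between fractions, at a log2 of -0.28 ± 0.15 in CD24Mid and -0.44 ± 0.30 in CD24Neg (exact two-sided permutation p = 0.343, adjusted p = 0.371). The neighbour Apoc3 was lower relative to Apoa1 in CD24Neg by 0.76, with overlap of the groups in 1 library each (exact p = 0.0571, adjusted p = 0.114). The ratio of the lipase activator gene Apoc2 to the inhibitor gene Apoc3 was 0.00 ± 0.27 in CD24Mid and 0.85 ± 0.32 in CD24Neg (exact p = 0.0286, adjusted p = 0.0762).

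The ratio of P4hb to its partner Mttp was 1.18 ± 0.37 in CD24Mid and 0.16 ± 0.18 in CD24Neg, with no overlap (exact p = 0.0286, adjusted p = 0.0762). For the cargo gene Apob the ratio to Mttp was -0.74 ± 0.46 in CD24Mid and 0.25 ± 0.60 in CD24Neg, with overlap (exact p = 0.0857, adjusted p = 0.137). The ratios of Pla2g12b to Mttp and of Apobec1 to Apob overlapped between fractions, with differences of -0.33 and -0.74 (adjusted p = 0.371 and 0.343). At an adjusted p under 0.05 by the exact permutation test, 0 of the 8 ratios passed, and 3 passed at an unadjusted p under 0.05. The smallest exact p of 4 against 4 libraries is 0.0286, so no single ratio could pass alone after adjustment over 8. The count of 0 therefore does not show that partners differed by equal amounts.

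Within CD24Neg the genes varied together. Libraries 4 and 6 held the highest 2 values in 10 of the 10 genes, in 6 of the 8 enterocyte markers and in 22.2% of all tested genes. The ratio of the highest to the lowest CD24Neg library was 4.03 for Apob, 2.45 for Apoc3 and 2.31 for Apoa4. The summed T and intraepithelial lymphocyte markers (6 of 6 genes) were 246, 89.2, 110 and 245 in CD24Mid libraries 1, 3, 5 and 7. In CD24Neg libraries 2, 4, 6 and 8 this sum was 7082, 424, 1217 and 5464. Mitochondrially encoded genes took 35.6, 28.3, 28.9 and 37.4%, the proximal small intestine markers summed to 65527, 94595, 108851 and 61842, and the distal markers (4 of 5 matched) to 16619, 12128, 5855 and 22623. The proximal sum was mostly Lct and Fabp1, which the enterocyte and triglyceride lists also hold. Cybrd1, at 43.3, 159.6, 47.5 and 17.4, was also highest in libraries 4 and 6, and Gata4 and Slc40a1 did not follow the sum. The distal sum was mostly Fabp6, while Fgf15 was at 209.9, 499, 466 and 328. Slc10a2 was at 52.6, 75.5, 102 and 195, and Slc51b at 1142, 838, 1136 and 1154. Libraries 2 and 8 were thus the higher ones in lymphocyte and mitochondrial values and in Fabp6 and the lower ones in the 10 genes, Lct and Fabp1. The part of these values in the result was not tested. Without libraries 2 and 8, chosen after this was seen, all 10 genes were still called higher, with log2 differences from 1.66 to 7.19.

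Within CD24Mid no such pair of libraries was shared. Libraries 1 and 3 were the highest in Apoa1, Apoa4, Apoc2 and Apoc3, libraries 5 and 7 in Apob, and libraries 1 and 5 in Mttp and Creb3l3. Library 3, which was high in Apoc3, was the lowest in Apob and in Mttp.

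**Figure D4:**
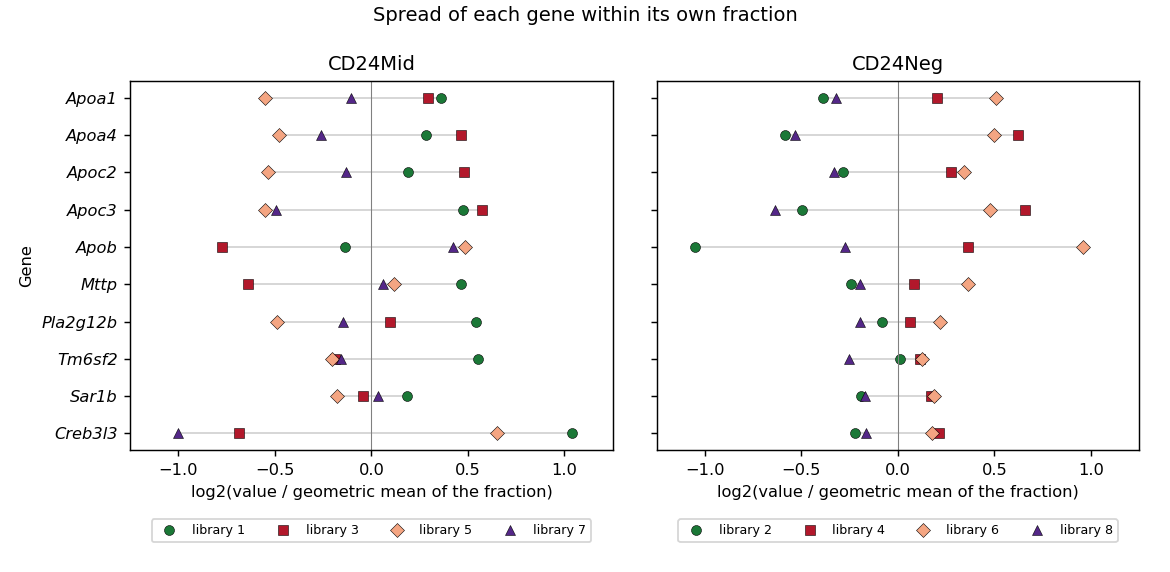
Log2 of each library's value over the geometric mean of its fraction, for each of the 10 genes, with 1 symbol per library and a panel per fraction. In CD24Neg, libraries 4 and 6 lie to the right of libraries 2 and 8 for every gene, and in CD24Mid the order differs between genes.

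Neighbouring genes differed in both directions. Within 50 kb of the 10 genes lie 31 other protein-coding genes, of which 23 were tested: 12 were higher in CD24Neg, 7 were lower and 4 were not called, beside 34.0% higher and 34.3% lower among all tested genes. Of the 12 higher calls, 4 (Clptm1, Nectin2, Sgta and Sugp1) depended on the scaling. Hapln4, Oit3 and 1110002E22Rik, also called higher, were under 10 in every CD24Mid library and passed the filter only through CD24Neg. At the chromosome 9 cluster of Apoa1, Apoc3 and Apoa4, the kinase gene Sik3 was at 474 ± 139 and 325 ± 19.9 and was not called (adjusted p = 0.0508), Zpr1 was lower (554 ± 29.5 to 414 ± 40.2, adjusted p = 0.00394), and so was Bud13 (238 ± 22.9 to 175 ± 22.2, adjusted p = 0.0139), though not after quantile normalization (adjusted p = 0.0910). Sik3 was called lower with scaling to totals (-0.92, adjusted p = 0.00293) and without CD24Mid library 1 (-0.71, adjusted p = 0.00166). Apoa5, in the same cluster, was at most at 10.4.

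At the chromosome 7 cluster, Apoc2 is flanked by Apoc4, Apoc1 and Apoe. Apoc4 and Apoc1 were under the filter and were not tested, and Apoe was called lower, though not in every alternative. The mitochondrial import gene Tomm40 there was lower in CD24Neg (1659 ± 125 to 763 ± 118, adjusted p = 2.11e-05), and the NF-kB subunit gene Relb was higher (484 ± 57.6 to 1159 ± 124, adjusted p = 7.09e-06). Beside Sar1b, Sec24a, a COPII cargo adaptor gene that starts 53 bases away in the opposite direction, was higher (846 ± 173 to 2185 ± 349, adjusted p = 4.53e-05), while Jade2 was 4.78-fold lower. Clptm1 and Nectin2, further neighbours of Apoc2, were 1.28-fold and 1.36-fold higher, calls that were lost with quantile normalization and scaling to totals.

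Around Pla2g12b, P4ha1 was not called (21.4 ± 10.6 and 28.6 ± 10.1), Mcu, the mitochondrial calcium uniporter gene, was 1.98-fold higher, and the low Oit3 was 5.35-fold higher. Around Tm6sf2, the cohesin loader gene Mau2 was 2.45-fold higher, Hapln4 8.29-fold and Sugp1 1.28-fold, the last not with scaling to totals. Around Creb3l3, Map2k2, a kinase gene of the MAP kinase cascade, was 2.47-fold higher and Sgta 1.56-fold, the peptidase gene Thop1 was 3.25-fold lower, and Slc39a3 and Zbtb7a were not called. Zbtb7a was called higher without the filter (adjusted p = 0.0100) and lower after quantile normalization (adjusted p = 0.0240) and scaling to totals (adjusted p = 0.0304), and Slc39a3 was called lower with scaling to totals (adjusted p = 0.0145). Sgta was not called after quantile normalization or with scaling to totals. Beside Mttp, the low gene 1110002E22Rik was at 1.88 ± 1.07 and 24.8 ± 10.5.

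**Figure D5:**
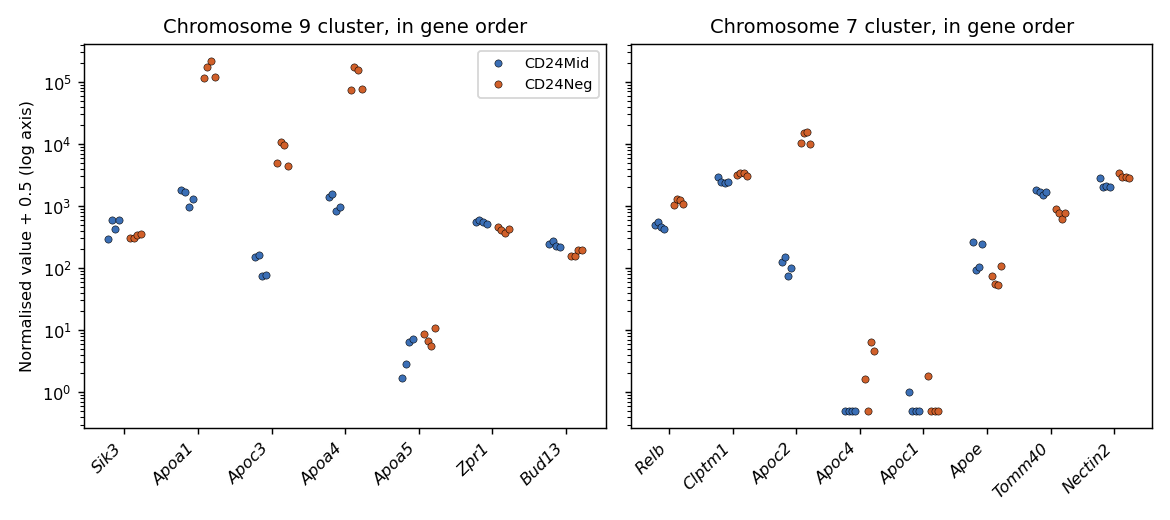
Deposited normalised value plus 0.5 (log axis) in every library for genes of the chromosome 9 and chromosome 7 apolipoprotein clusters, in order along the chromosome, with CD24Mid and CD24Neg libraries as points. Apoa1, Apoc3, Apoa4 and Apoc2 stand far higher in CD24Neg. The fractions overlap for Sik3 and Apoe, Tomm40 is 2.19-fold lower and Relb 2.39-fold higher in CD24Neg.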

How the data were processed

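Per the labels' protocols, libraries were made from total RNA of flow-sorted cells with a TruSeq RNA kit. The values that the authors deposited are normalised gene-level expression signals, 1 per Ensembl gene and library, named for mmseq per the file headers and names. Bowtie 0.12.8 and the build NCBIM37 are named in the submitters' processing notes, and no other step is given in the sources used here. Steps between low values were 0.589 to 0.702 in CD24Mid and 1.08 to 1.78 in CD24Neg, so CD24Neg was less precise at low levels, and the depths rest on 1 step being 1 read.

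Symbols (21223 of 23318 identifiers), gene positions and lengths are from GENCODE M21 on GRCm38, since no genome of the files' build was used here. The 12906 genes that reached a value of 10 in 4 or more libraries were centred on the median ratio and fitted as log2(value + 0.5) with limma 3.58.1 (R 4.3.3), using lmFit and eBayes with trend and robust variance and 6 residual degrees of freedom, with Benjamini-Hochberg adjustment at 0.05. The fold change of low genes is understated on this scale. The fixed design foresaw counts or log-scale values, and the branch without counts was used because whole reads could not be recovered for nearly all genes. The script was tested on simulated data. For shares and ratios the exact two-sided permutation test of scipy 1.17.1 was used. The series text calls the libraries biological replicates, and they share no number between fractions.

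The 10 genes, the lists and the ratios were chosen with earlier results of these data known. Beyond the 10 genes and the genes of the ratios, the text names of each list up to 3 genes higher and 3 lower by adjusted p. Up to 2 uncalled genes of each list are named by level, and every tested protein-coding gene within 50 kb was eligible. Genes of no such rule are said to be chosen later, given only as levels, or named only for a call lost in an alternative fit. Alternatives were pseudocounts of 0.1 and 1, no filter, no centring, quantile normalization, scaling to totals after removal of the 20 most abundant genes, no trend and each library left out. Leaving out CD24Neg libraries 2 and 8 was chosen after seeing the data. Of the listed genes, Mia3, Vamp7, Fgf21, Gpihbp1 and 10 markers, among them all 5 of pancreatic acinar cells, were not analysed here. A few list members are counted but not reported here by name.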

Additional observations from a re-analysis of the deposited data

Results flagged for a closer look

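In 6 of 174 sets of 4 libraries that were examined, 1 library stood apart from the other 3 by more of the range than Dixon's 95% criterion allows. Chance alone gives about 1 in 20 such sets. All 6 lay in CD24Mid. Library 1 was the highest for Tm6sf2, at 1388 against 821 to 847 in the others, for P4hb, the Mttp partner, at 14737 against 11166 to 11709, and for the Apoc2 neighbours Clptm1, at 2971 against 2322 to 2432, and Nectin2, at 2829.7 against 2012 to 2119. Library 3 was the highest for Creb3l1, at 748 against 508 to 536, and for the log2 ratio of P4hb to Mttp, at 1.73 against 0.93 to 1.06. In each of Tm6sf2, P4hb, Clptm1 and Nectin2, CD24Mid library 1 was still below every CD24Neg library, and the Creb3l1 value of library 3 was above every CD24Neg library. The call of Tm6sf2 did not rest on library 1, since its log2 difference was 2.79 without it and 2.61 with it.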

How the results depend on the processing

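The 10 genes were called higher in all 16 alternative fits each, with adjusted p-values of at most 8.59e-04 (Apob, limma). With libraries scaled to totals, the genes higher in CD24Neg numbered 2842 and not 4386, and the other pathway genes lower numbered 23 and not 12, or 19 after quantile normalization. The share of the 10 genes differed by 3.26 percentage points without CD24Neg libraries 2 and 8 (exact permutation p = 0.0667, the smallest that 4 against 2 can give), and by 2.30 to 2.84 when each library was left out. Leaving out each library gave 3970 to 4266 genes higher, 3882 to 4306 lower, 51 to 52 other pathway genes higher and 10 to 13 lower.

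These log2 differences changed sign: after quantile normalization Hspa5 (-0.47), Mbtps1 (-0.26), Creb3l4 (0.046), Clptm1 (-0.13), Nectin2 (-0.024) and Zbtb7a (-0.24), and with scaling to totals Apoh (-0.056), Hspa5 (-0.34), Mbtps1 (-0.24), Clptm1 (-0.073), Sugp1 (-0.076), Slc39a3 (-0.33) and Zbtb7a (-0.23). With each library left out in turn, Cdx2 ranged from -0.14 to 0.029 (above 0 without CD24Mid 1, CD24Mid 3 or CD24Neg 8), Gata4 from -0.12 to 0.11 (above 0 without CD24Mid 1 or CD24Neg 8), Hspa5 from -0.081 to 0.20 (below 0 without CD24Mid 3 or CD24Neg 6), and Sar1a from -0.059 to 0.029 (above 0 without CD24Neg 8). None of these 4 was called in any of those fits. Without CD24Neg libraries 2 and 8, Sar1a was at 0.070, Gata4 at 0.12 and the ratio of Apoa4 to Apoa1 at 0.048. The cause was not tested. No paired analysis was run, because the fractions share no replicate number. Whether libraries with consecutive numbers, such as CD24Mid 1 and CD24Neg 2, came from the same mice is not given in the sources used here.

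Steps worth about 1 read of 1.08 to 1.78 limit what CD24Neg can show of genes such as Apoc4, Apoc1 and Saa2. A step is an estimate, and intervals from counts could not be given.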
